A study of Mus musculus with 6 samples.

Results

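The 8 genes described here are Emx1, Emx2, Eomes, Neurog2, Tbr1, Fezf2, Bcl11b and Tle4, regulators of progenitors and projection neurons in the developing cerebral cortex. They were chosen by name, 8 of 21951 protein-coding genes, and each locus was taken from 10 kb before the 5′ end of the gene to 10 kb past its end on GRCm38. A cytosine was used where all 6 libraries covered it with at least 6 reads, which left 819 of 646645 cytosines. The assay, Ox-RRBS, is a reduced representation form of bisulfite sequencing in which MspI digestion enriches CpG-rich fragments and an oxidation step keeps 5-hydroxymethylcytosine from being read as 5-methylcytosine. The tissue was whole cortex of C57BL/6 mice at embryonic day 16, with 3 control and 3 conditional knockout (cKO) libraries. Control animals were heterozygous for Uhrf1 (Uhrf1 +/-), and cKO animals had lost Uhrf1 in the Emx1 lineage through Cre expressed from the Emx1 gene, which both groups carried. Whole cortex also holds cells outside that lineage, and a loss in every cell cannot be told apart here from a larger loss in some of them. The labels do not say whether the libraries came from separate animals, so p-values measure only the spread between these libraries.

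Uhrf1 recognizes newly replicated DNA that is methylated on 1 strand and brings Dnmt1 to it, so that methylation is copied at each division. Emx1 and Emx2 are homeobox factors of dorsal progenitors, Neurog2 is a proneural factor, and Eomes marks the intermediate progenitors that follow. Tbr1, Fezf2, Bcl11b and Tle4 are regulators of projection neurons of the deep layers. Promoters and CpG islands of developmental regulators are commonly free of methylation.

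The library labelled control replicate 1 stood apart from its group. Over the common cytosines its mean methylation level was 15.6%, against 39.4% and 38.9% in control replicates 2 and 3 and 15.8% to 19.6% in the 3 cKO libraries. It kept its label, and tests are given with all 6 libraries and without it. Reads over the listed cytosines ranged from 18238737 to 31019082 a library. Mitochondrial cytosines, which are expected to read as unmethylated, were read as C in 0.922% to 1.14% of reads in 4 libraries, and in 3.67% and 3.35% in cKO replicates 2 and 3.

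Sequences of 5 stretches on which the results turn are shown on the strand of each gene, 5′ to 3′, with the CpGs measured in all 6 libraries in capitals. The first is the 250 bases before the RefSeq 5′ end of Tle4 (chr19:14598184-14598433, minus strand), shown as an unmethylated promoter. The second lies in the last coding exon of Bcl11b (chr12:107915501-107915700, minus strand), where methylation was largely kept. The others are single windows of 100 bp in which every cKO library lay below control replicates 2 and 3: an intron of Bcl11b (chr12:107942501-107942600, minus strand), an intron of Tle4 (chr19:14477701-14477800, minus strand) and the upstream flank of Fezf2 (chr14:12350401-12350500, minus strand).
Tle4 promoter: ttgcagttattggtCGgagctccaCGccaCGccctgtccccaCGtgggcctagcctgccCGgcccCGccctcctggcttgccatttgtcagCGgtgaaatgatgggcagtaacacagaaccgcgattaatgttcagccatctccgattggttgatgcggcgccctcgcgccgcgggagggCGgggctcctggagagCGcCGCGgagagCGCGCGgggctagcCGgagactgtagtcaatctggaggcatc
Bcl11b last coding exon: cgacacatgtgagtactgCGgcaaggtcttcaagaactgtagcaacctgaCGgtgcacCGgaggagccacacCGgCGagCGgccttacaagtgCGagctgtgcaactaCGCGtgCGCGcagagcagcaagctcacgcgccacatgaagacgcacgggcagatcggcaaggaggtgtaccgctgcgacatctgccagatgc
Bcl11b intron: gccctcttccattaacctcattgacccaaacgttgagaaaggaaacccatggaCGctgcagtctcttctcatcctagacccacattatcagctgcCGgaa
Tle4 intron: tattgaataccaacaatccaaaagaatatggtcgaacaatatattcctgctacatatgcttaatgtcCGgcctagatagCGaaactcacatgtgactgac
Fezf2 upstream flank: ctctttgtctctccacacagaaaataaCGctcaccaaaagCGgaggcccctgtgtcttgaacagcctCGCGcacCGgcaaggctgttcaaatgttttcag

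Sequence letters are those of GRCm38, the promoter being the RefSeq entry. The promoter stretch holds 24 CpGs, of which 15 were measured, the exon stretch 19 with 11 measured, and the 3 windows 3, 3 and 5 CpGs with 2, 2 and 5 measured, in the order given.

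Each locus was divided into the promoter (1000 bases before to 500 after the GENCODE 5′ end), the rest of the gene body and the flanks of up to 10 kb on either side. Of 32 regions, 27 held at least 3 common cytosines and were tested, while the Emx1 and Tle4 downstream flanks, the Tbr1 promoter and upstream flank and the Fezf2 promoter held 0. Most of what was measured was nearly unmethylated in both groups. In 22 of 27 regions (81.5%) every library was under 10%, against 38.1% of 41373 regions of all protein-coding genes. Of the 7 members with at least 3 measured regions, Emx2, Eomes and Neurog2 were under 10% in every region and library, which held for 324 of 7643 genes (4.24%).

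A region was called lower where the moderated quasi-binomial test gave an adjusted p (Benjamini-Hochberg, over all genes) under 0.01 and the cKO mean lay at least 25 percentage points under the control mean. With all 6 libraries no promoter, gene body, upstream flank, downstream flank or 100 bp window was called lower, and the share called was 0 for each over all features too. At an unadjusted p under 0.05, 1 of 27 member regions and 8 of 260 member windows differed, against 15.7% of all regions and 15.2% of all windows. Limma on logit levels called 0 member regions and windows as well, and a plain binomial test, which allows no spread between libraries, called 21 of 260 member windows and 37.5% of all windows. Without control replicate 1, the share called lower over all genes was 0.806% for promoters, 57.7% for gene bodies, 54.9% for upstream flanks, 49.4% for downstream flanks and 43.8% for windows. Among the members it was 0 of 6 promoters, 0 of 8 bodies, 0 of 7 upstream flanks, 1 of 6 downstream flanks (Bcl11b) and 27 of 260 windows. Only 3 of the 27 member regions stood at 25% or more in control replicates 2 and 3. They were the Bcl11b body and downstream flank and the Fezf2 upstream flank, the last at a mean of 26.7%. The Fezf2 flank could barely have fallen by 25 points, so its lack of a call says little. The other 24 could not have been called, and the counts of 0 say nothing about them. Of the 27 windows, 24 lay in the Bcl11b locus and 1 each in Emx1, Tbr1 and Tle4. Windows at 25% or more in control replicates 2 and 3, which alone could fall by that much, were called in 27 of 63 cases (42.9%), against 67.0% over all windows. Other settings without control replicate 1, added after the values were seen, called 27 member windows on autosomes (44.3% of all windows), 18 with limma (40.1%) and 32 at a difference of 10 points (44.7%). At 10 points the Bcl11b body (70.3% of all bodies) and downstream flank (59.2% of all downstream flanks) were the member regions called.

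**Figure D1:**
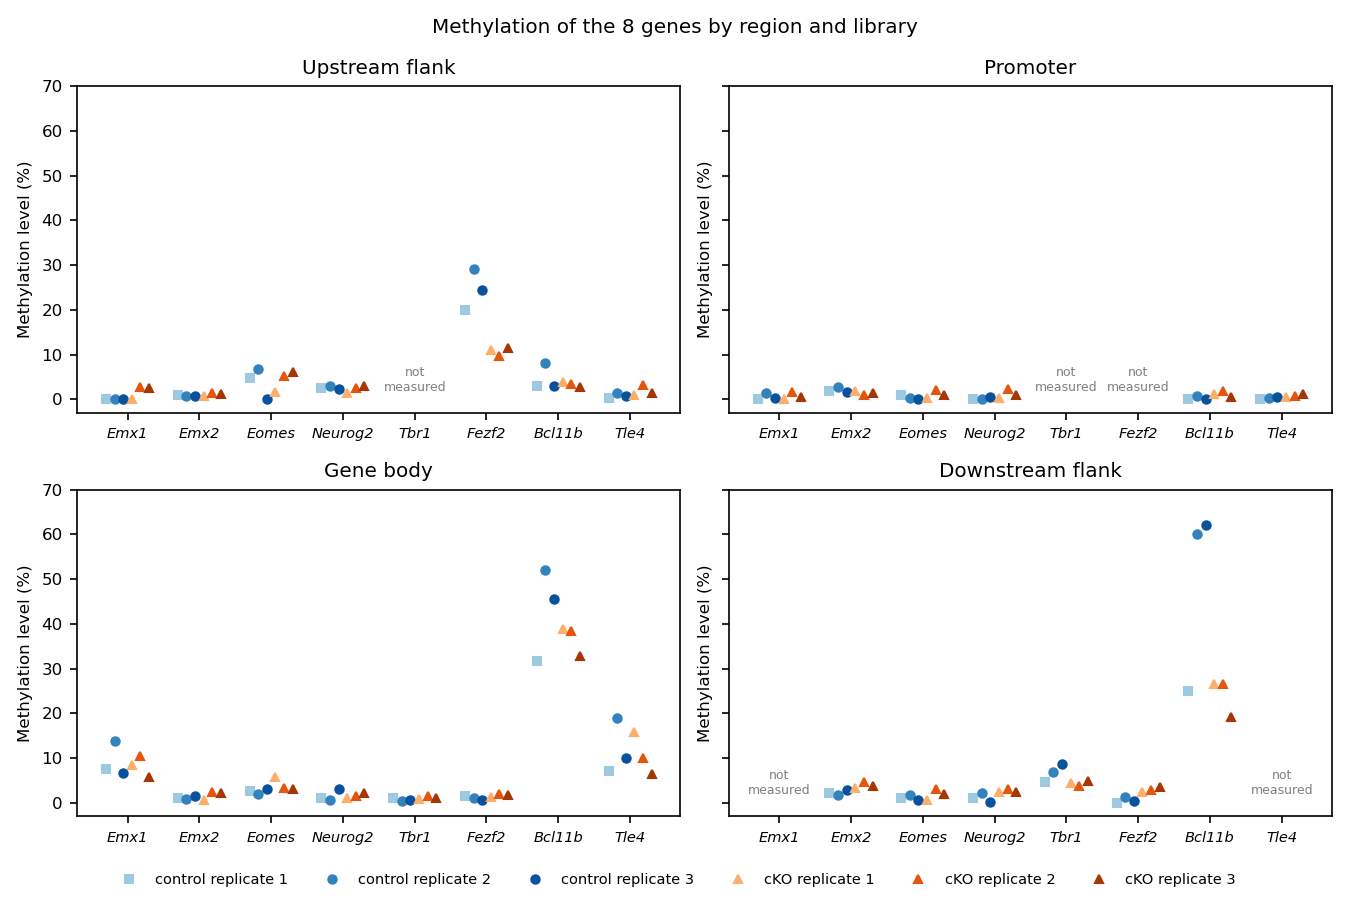
Methylation level in percent of reads (vertical axis) for each of the 8 genes (horizontal axis) in 4 region types, with 1 point for each library. Values sit near 0 apart from the Bcl11b body and downstream flank, the Emx1 and Tle4 bodies and the Fezf2 upstream flank.

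Of the 4 progenitor genes, 3 were under 10% in every region and Emx1 was higher only in its body. In the promoter of Emx1 (chr6, 85187438 to 85204462, plus strand), levels were 0%, 1.37% and 0.36% in control replicates 1 to 3 and 0%, 1.74% and 0.46% in cKO replicates 1 to 3. A level of 0% in control replicate 1 rested on 224 reads, which allows up to 1.34%, a limit for counting error only. Its gene body, 31 cytosines, stood at 7.59%, 13.8% and 6.67% in controls and at 8.42%, 10.5% and 5.86% in cKO libraries, and the groups overlapped. All of the methylation in the Emx1 body at 25% or more lay near its 3′ end, in 4 windows 14812 to 16512 bases from the 5′ end. The last of these, in a coding exon and resting on 1 cytosine, was at 27.8%, 76.6% and 47.6% in controls and at 28.6%, 26.7% and 21.1% in cKO libraries. It was the Emx1 window called lower without control replicate 1 (adjusted p = 0.002 by the quasi-binomial test).

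Emx2 (chr19, 59458372 to 59465357, plus strand) was low in all 4 regions. In this locus of 679 CpGs, 121 cytosines were measured, those of each strand counted separately. Promoter levels were 2.00%, 2.74% and 1.56% in controls and 1.90%, 1.08% and 1.37% in cKO libraries. Over 53 cytosines of the body, controls stood at 1.20%, 0.96% and 1.45% and cKO libraries at 0.75%, 2.47% and 2.18%. No window of the locus reached 25% in control replicates 2 and 3. Of its 33 windows, 24 were under 10% in every library, and the window with the highest cKO mean among those with enough reads, 12978 bases from the 5′ end, was at 22.5%, 5.13% and 4.48% in controls and at 7.58%, 12.7% and 8.63% in cKO libraries. The antisense gene Emx2os overlaps its promoter, and a cytosine there belongs to both.

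Neurog2 (chr3, 127633135 to 127635631, plus strand) was likewise low. Its promoter was at 0%, 0.18% and 0.65% in controls and 0.42%, 2.38% and 1.06% in cKO libraries, and its upstream flank, with 41 cytosines, at 2.52%, 2.97% and 2.30% and at 1.46%, 2.64% and 3.05%. The locus had no window at 25% or more in control replicates 2 and 3.

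Eomes (chr9, 118478212 to 118486132, plus strand) had a body at 2.66%, 2.01% and 3.12% in controls and at 5.76%, 3.41% and 3.16% in cKO libraries. Here every cKO library lay above every control, by 1.51 percentage points between means (adjusted p = 0.780, quasi-binomial test). A single intron cytosine 4738 bases into the gene was at 22.2%, 50.0% and 66.7% in controls and at 68.0%, 43.8% and 9.68% in cKO libraries, which overlapped widely.

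Among the neuronal genes, Tbr1 and Fezf2 were low within the gene. Tbr1 (chr2, 61802930 to 61814114, plus strand) had 71 body cytosines at 1.17%, 0.40% and 0.70% in controls and at 0.95%, 1.58% and 1.13% in cKO libraries. Its downstream flank was at 4.63%, 6.89% and 8.71% in controls and 4.50%, 3.72% and 4.91% in cKO libraries, lower by 2.37 points (adjusted p = 0.494, and 0.037 without control replicate 1, quasi-binomial test). One cytosine 13420 bases from the 5′ end accounted for the highest levels, at 11.8%, 80% and 48.1% in controls and 21.4%, 12.9% and 23.3% in cKO libraries.

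Fezf2 (chr14, 12342094 to 12348189, minus strand) had a body of 66 cytosines at 0.70% to 1.90% in every library. Its upstream flank was measured only in the window shown above, 2261 bases before the 5′ end, with 5 cytosines. Controls read 20%, 29.0% and 24.4% there, and cKO libraries 11.0%, 9.79% and 11.5%. This was the only 1 of 27 member regions in which every cKO library lay below every control, which held for 7.38% of all regions. The fall of 13.7 points did not reach 25, and the adjusted p was 0.353 with all libraries and 0.019 without control replicate 1 (quasi-binomial test).

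Tle4, a Groucho-family corepressor (chr19, 14448150 to 14598051, minus strand), had an unmethylated promoter with 41 cytosines, at 0.20%, 0.27% and 0.48% in controls and 0.49%, 0.76% and 1.32% in cKO libraries. Its body was at 7.08%, 18.9% and 10% and at 15.8%, 9.98% and 6.56%, without separation. The intron window shown above, 120301 bases into the gene, was at 38.7%, 74.4% and 83.3% in controls and at 45.7%, 26.4% and 40.0% in cKO libraries. Control replicate 1 lay within the cKO range, and without it the window was called lower (adjusted p = 0.000271, quasi-binomial test).

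**Figure D2:**
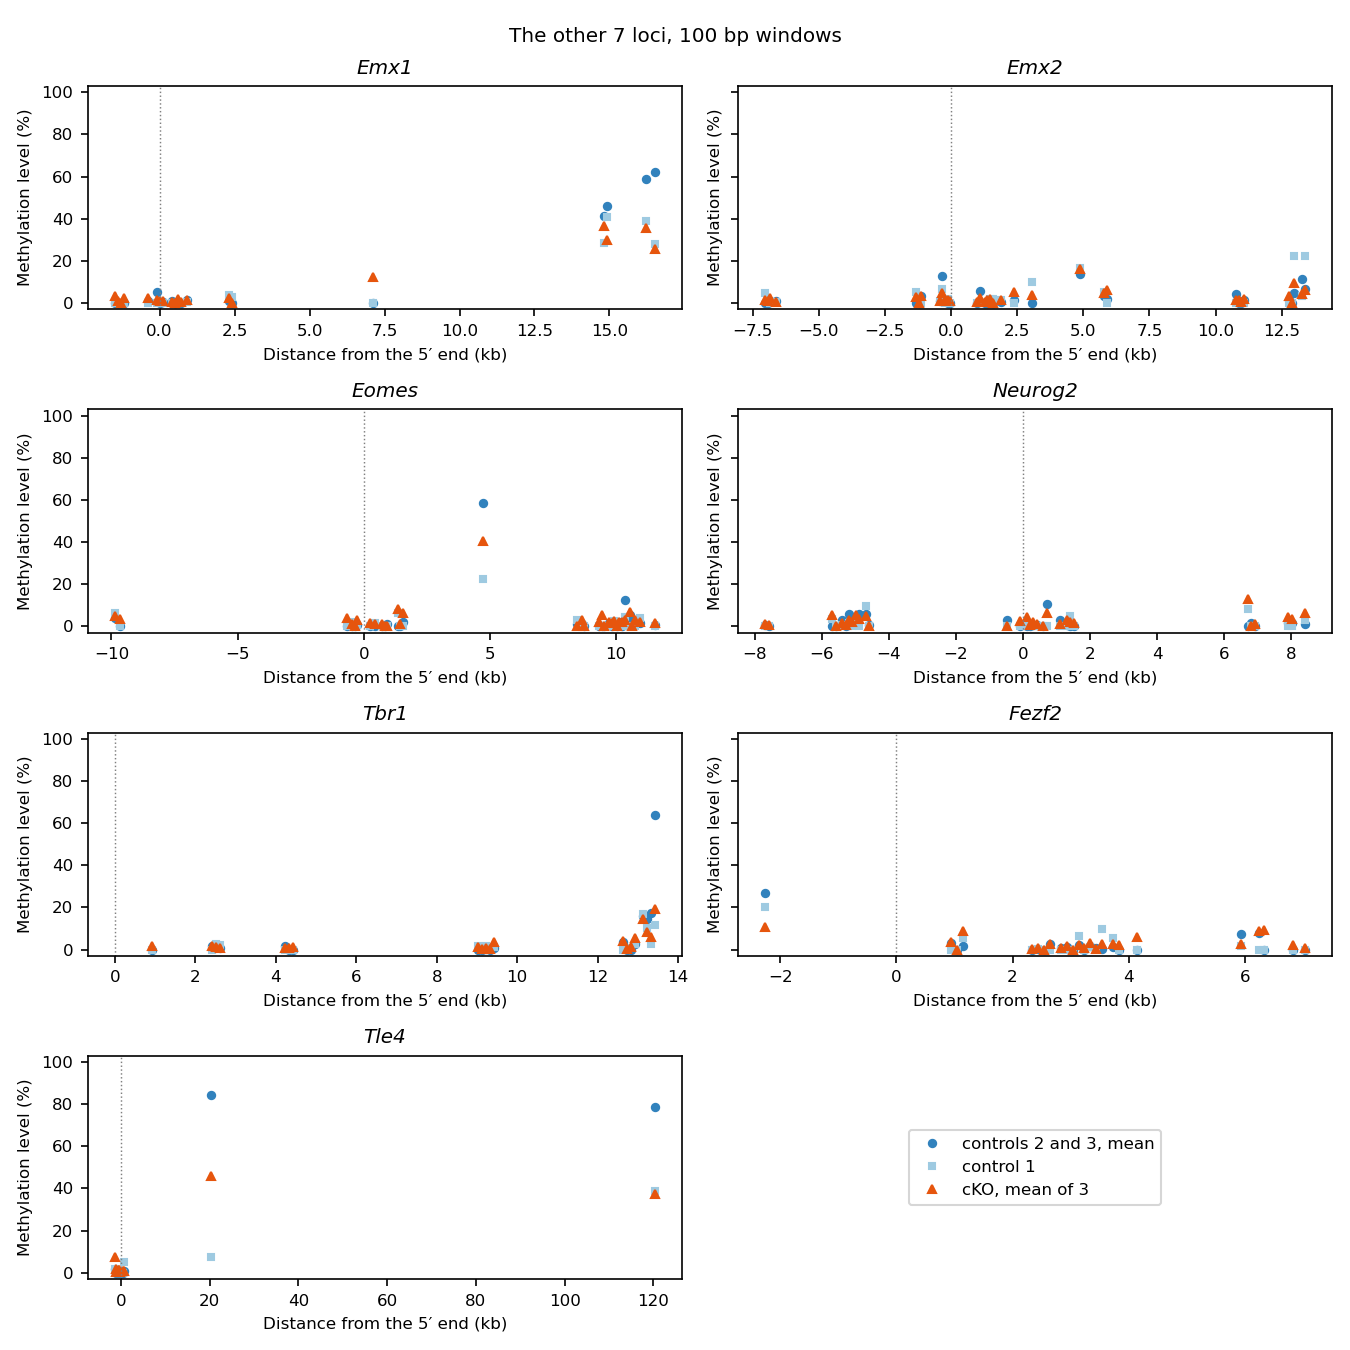
Methylation level (vertical axis, percent) of 100 bp windows against distance from the 5′ end in kb (horizontal axis) at 7 loci. Points give the mean of control replicates 2 and 3, control replicate 1 and the mean of the 3 cKO libraries, and windows above 25% are few and lie away from the 5′ end.

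GENCODE and RefSeq place several 5′ ends apart. RefSeq lies farther into the gene by 2324 bases for Fezf2, 1523 for Tbr1, 838 for 1 of 2 ends of Tle4, 493 for Emx1, 318 for Emx2 and 188 for Bcl11b. Around the RefSeq ends, a choice made after the values were seen, the Tbr1 and Fezf2 promoters could be measured too. Over the 6 libraries the Fezf2 promoter was at 0.13% to 1.15%, and that of Tbr1, resting on 3 cytosines and 48 to 120 reads, at 0% to 3.85%. The highest level of any other member was 2.74%, in Emx2.

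Bcl11b, a zinc finger factor of subcortical projection neurons (chr12, 107910403 to 108003602, minus strand), was the member with widespread methylation. Its promoter was at 0%, 0.73% and 0% in controls and 1.24%, 1.81% and 0.54% in cKO libraries. The body, 150 cytosines, was at 31.8%, 52.1% and 45.6% in controls and at 38.8%, 38.4% and 32.9% in cKO libraries. Without control replicate 1 the body differed by 12.1 points (adjusted p = 0.000742, quasi-binomial test), under the 25 points a call required. The downstream flank was at 25.1%, 60.0% and 62.1% in controls and at 26.6%, 26.6% and 19.2% in cKO libraries. It differed by 24.9 points with all libraries (adjusted p = 0.248) and by 36.9 points without control replicate 1 (adjusted p = 5.73e-06, both quasi-binomial tests).

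**Figure D3:**
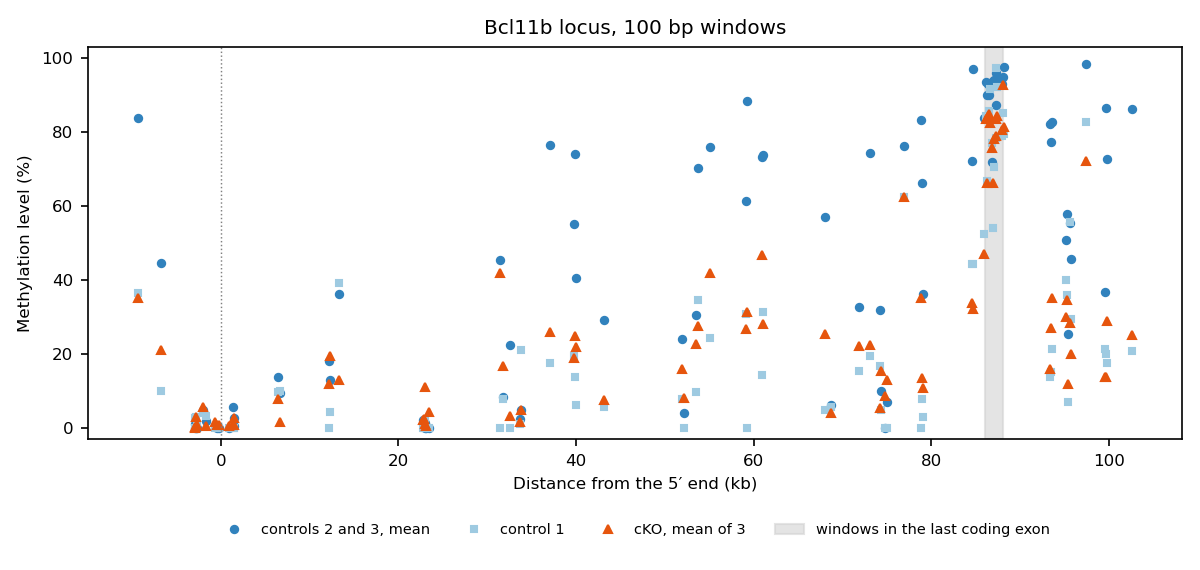
Methylation level (vertical axis, percent) of 100 bp windows across the Bcl11b locus against distance from the 5′ end in kb (horizontal axis), for the mean of control replicates 2 and 3, control replicate 1 and the mean of the cKO libraries. In the shaded last coding exon the cKO points lie at 66% to 93%, while most intron and flank cKO points lie below 50%. Only 25 of 49 intron windows reached 25% in control replicates 2 and 3, so many intron points were low in controls too.

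Levels along Bcl11b did not fall evenly. The division that follows was made after the values were seen and is a description, with no test between its parts. The last coding exon (107915403 to 107917414), which encodes most of the zinc fingers, held 44 measured cytosines. It was at 77.5%, 90.7% and 88.2% in controls and at 77.8%, 80.4% and 80.4% in cKO libraries. The cKO mean was thus 88.9% of the mean of control replicates 2 and 3. Introns within 50 kb of this exon, but more than 300 bases from it, were at 15.4%, 51.7% and 46.7% in controls. In cKO libraries they were at 27.7%, 22.3% and 19.9%, with 47.4% left. The 3 intron cytosines within 300 bases of the exon lay between, at 71.7%, 88.8% and 91.4% and at 74.6%, 69.9% and 70.7%, with 79.6% left. In the 3′ UTR, 7 cytosines were at 79.4%, 97.4% and 97.6% in controls and at 92.0%, 86.8% and 65.1% in cKO libraries, with 83.4% left. Control replicate 1 lay nearer to the cKO libraries than to the other controls in each of these stretches. Window calls without control replicate 1, sorted by this division, were 0 of 13 coding exon windows. For intron windows at 25% or more in control replicates 2 and 3 they were 16 of 25. Over all windows of the genome at that level the share called was 67.0%. The Bcl11b windows share 1 locus, and no difference between these counts was tested.

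**Figure D4:**
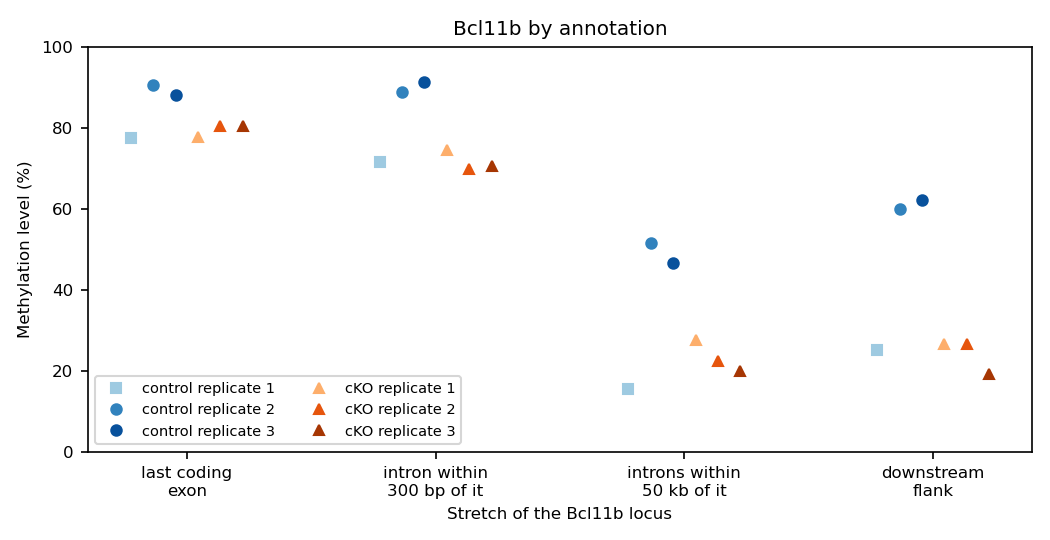
Methylation level (vertical axis, percent) in 4 stretches of the Bcl11b locus (horizontal axis), with 1 point for each library. The stretch of introns within 50 kb leaves out the 300 bases nearest the exon. In the last coding exon all libraries lie between 77.5% and 90.7%, while in the nearby introns and the downstream flank control replicates 2 and 3 lie well above the other 4.

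The exon stretch printed above was at 81.3%, 93.9% and 93.6% in controls and at 85.2%, 89.7% and 82.5% in cKO libraries, and the printed intron window at 31.3%, 69.1% and 78.3% and at 28.8%, 25.7% and 29.9%. The exon is richer in CpG than the gene around it, with 8.05 CpGs in 100 bases against 2.14 over the whole gene. The next counts cover 100 bp windows at 80% or more in control replicates 2 and 3 with at least 20 reads in every library. Of these, 1.16% of windows with 1 to 2 CpGs and 16.3% of those with 7 or more kept a cKO mean of 70% or more. All 6 Bcl11b windows among those with 7 or more CpGs did so. So did 2 of 2 with 5 to 6 CpGs (6.91% of all such windows) and 1 of 2 with 3 to 4 (3.01%). Of those with 1 to 2 CpGs, 0 of 3 did. Without that minimum of reads, the 13 coding exon windows of Bcl11b had cKO means of 66.1% to 92.8%, the lowest being under 70%. These windows belong to 1 locus and are not independent cases. Among 554 coding exons with at least 10 measured cytosines and the same control level, the median cKO level was 37.6%, and 3 exons (0.542%), in Slc25a31, Asmt and Tenm3, kept a larger share than that of Bcl11b. These comparisons were added after the values were seen.

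**Figure D5:**
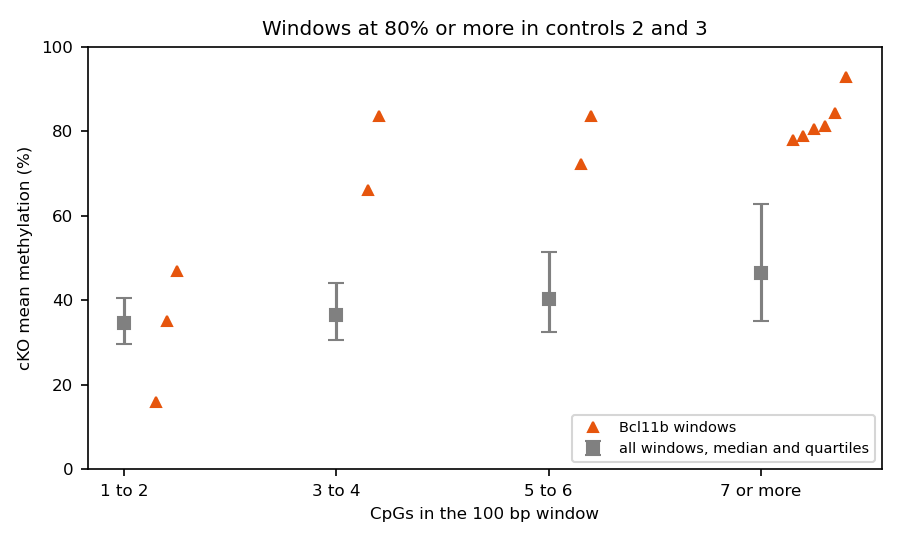
Mean cKO methylation level (vertical axis, percent) of 100 bp windows, by the number of CpGs in the window (horizontal axis). Windows shown were at 80% or more in control replicates 2 and 3, with at least 20 reads in every library. Squares and bars give the median and quartiles over all such windows and triangles the single Bcl11b windows, of which those with 7 or more CpGs all lie above the upper quartile of 62.8%.

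Averaged over cytosines, Bcl11b carried the difference of the whole set. Over the 8 gene bodies the mean level was 17.4% ± 3.57 (SD, n = 3) in controls and 14.7% ± 0.333 in cKO libraries, and without Bcl11b it was 2.61% ± 0.353 and 2.66% ± 0.395. Over the downstream flanks the means were 10.6% ± 3.57 and 7.09% ± 0.846 with Bcl11b, and 3.35% ± 0.855 and 3.41% ± 0.234 without it. Without control replicate 1 the body difference grew from -2.64 to -4.69 points and the downstream difference from -3.47 to -5.39. Promoters stood at 0.623% ± 0.194 in controls and 1.13% ± 0.402 in cKO libraries.

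In 5 of 27 member regions (18.5%) every cKO library lay above every control, which held for 5.04% of all regions. The latter share covers mostly higher levels than those of the members. By type it was 13.0% of all promoters, of which 86.5% were under 10% in every library. For bodies, upstream and downstream flanks it was 1.44%, 2.08% and 2.28%. These were the Eomes body, the Tle4 promoter and the downstream flanks of Emx2, Neurog2 and Fezf2, and the rises in mean were 0.54 to 2.41 points. None passed the test. As a mean over cytosines, the rise was 0.22 points for Emx2, 0.46 for Eomes, 0.55 for Tle4, 1.80 for Neurog2 and 2.37 for Fezf2. The highest control and the lowest cKO library nearly tied in the Eomes body (3.12% and 3.16%) and the Tle4 promoter (0.48% and 0.49%). Among the 22 low regions, cKO replicate 2 was the highest library in 13. The mitochondrial reads gave 3.67% in that library and 3.35% in cKO replicate 3, and their part in these small differences was not tested.

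Other regulators of cortical progenitors and neurons, from lists of 16 and 30 genes, were compared in the same fit. With all libraries none was called lower. Without control replicate 1, 9 of 27 neuronal gene bodies and 1 of 15 progenitor gene bodies were called, against 57.7% of all genes. Few of them were high enough to fall by 25 points: of bodies at 25% or more in control replicates 2 and 3, the calls were 9 of 13 neuronal, 1 of 1 progenitor and 7735 of 10007 (77.3%) over all genes, and no difference between these was tested. Reln, secreted by Cajal-Retzius cells, was in the body at 27.6%, 68.7% and 64.1% in controls and at 34.8%, 29.1% and 25.1% in cKO libraries. Control replicate 1 lay within the cKO range, and the body was called lower only without it (adjusted p = 0.213 with all libraries, quasi-binomial test). None of 21 neuronal and 14 progenitor promoters was called, against 0.806% of all promoters. Only 0 of the 21 and 1 of the 14 stood at 25% or more in control replicates 2 and 3. The rest could not have been called, and the counts say nothing about them. In Pax6, a dorsal progenitor factor, 12 promoter cytosines around the GENCODE 5′ end stood at 60.1%, 46.0% and 59.5% in controls. In cKO libraries they stood at 47.9%, 41.5% and 43.6%, and the groups overlapped (adjusted p = 0.975, quasi-binomial test), while the Pax6 body, 92 cytosines, was at 2.54% to 5.29%.

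The gene bodies most like each member, by the root mean square difference over the 6 libraries among 8744 bodies with at least 10 cytosines, were Cul1 for Emx1, Lhx6 for Emx2, Trmt1 for Eomes, Nkx2-3 for Neurog2, Tpm4 for Tbr1, Maip1 for Fezf2, Rab28 for Bcl11b and Intu for Tle4. The low members had many such neighbours: 951 bodies lay within 2 points of Emx2. Bcl11b and Tle4 had 1 each.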

How the data were processed

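Processed tables of 6 oxidative RRBS libraries were used, 3 control and 3 cKO. The authors mapped reads to GRCm38 and used methylKit, per the labels; other versions are not given in the sources used here. In the deposited tables each cytosine has its coverage, a count of reads, and its percent C and percent T. Methylated reads were rebuilt as coverage times percent. Groups came from the titles. Every common cytosine lies in a CpG of GRCm38 (646645 of 646645).

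Reads were summed over the cytosines of each region (GENCODE M21, at least 3 cytosines) or 100 bp window. A binomial model with group was fitted to each, with a dispersion moderated by limma 3.58.1 (R 4.3.3), an F test and Benjamini-Hochberg adjustment. Calls needed q under 0.01 and 25 percentage points. The test was tried on simulated reads with 2 forms of noise. In the first, where overdispersion grew with coverage, recovery of lowered gene bodies fell short of the level asked for, so a second form matching the variance of the model was added; there gene bodies were recovered, but a large part of lowered windows was missed. False calls were rare under both. An uncalled body or window is therefore weak evidence that it did not fall. Members and lists were chosen with earlier results of these data known. The genes named were the 8 members, Pax6, and by a fixed rule listed genes and the windows with the largest fall and the highest cKO mean; other named features were chosen after their values were seen. Alternatives were coverage of 10 and 20, a plain binomial test, limma on logit levels, other thresholds, autosomes only, a replicate block and leaving out each library.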

Additional observations from a re-analysis of the deposited data

Results flagged for a closer look

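Mitochondrial cytosines lie outside the comparisons above. Over 20 of them covered in every library, the percent of reads with C was 3.67% in cKO replicate 2 and 3.35% in cKO replicate 3, above the 0.922% to 1.14% of the 3 control libraries, while cKO replicate 1 was at 0.963%. Wilson 95% intervals were 3.37% to 4.01% and 3.10% to 3.63% for those 2 libraries, and cover counting error only.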

How the results depend on the processing

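With all 6 libraries, the counts of members called lower stayed at 0 under coverage minimums of 10 and 20, limma, q under 0.05, 10 points, autosomes only and other cytosine minimums, and a plain binomial test called 21 windows (37.5% of all). Leaving out 1 library gave 0 to 1 downstream flanks (Bcl11b) and 0 to 27 windows, and 0 elsewhere. The values above 0 came without control replicate 1. Without it, settings added after the values were seen gave 1 downstream flank each and 27 windows on autosomes (44.3% of all windows called), 18 with limma (40.1%) and 32 at 10 points (44.7%), where 1 gene body (Bcl11b) was also called (70.3% of all bodies). Promoters called over all genes rose from 95 to 418 on autosomes and 385 with limma. The promoter mean difference was 0.504 points, and 0.886 at a coverage of 20. Of 238 alternative values per gene and region, 231 moved by less than 1 SD, pooled within groups over all 6 libraries. Control replicate 1 widens this SD, so the count is no sign of stability. Without that library the Bcl11b downstream difference went from -24.9 to -36.9 points and the body difference from -6.43 to -12.1. Both shifts were under 1 SD. Correlations between libraries across bodies, with control replicate 1 apart from its group, cannot decide whether the replicate numbers pair libraries. With a replicate block the member counts stayed at 0. Over all genes that setting called 35 of 7059 upstream flanks, 14 of 9133 downstream flanks and 0 promoters, bodies or windows. Each group has 3 libraries, and cytosines outside MspI fragments were not analysed here. The cause of these shifts was not tested.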
